A study of Urosaurus graciosus
Urosaurus ornatus and Urosaurus graciosus and Urosaurus ornatus with 18 samples.

Results

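The heat response of hybrid livers was examined in 6 of the 18 lizards of the series, 3 hybrids held at 40 °C and 3 other hybrids held at 36 °C, each for 48 h. The hybrids descend from Urosaurus graciosus, the long-tailed brush lizard, and Urosaurus ornatus, the ornate tree lizard, both small desert lizards of North America. All 6 libraries were chosen by their labels alone, as every hybrid in the series. The heated animals carry the letters I, K and X, and the unheated ones A, B and D. Every animal was male, liver RNA was made into strand-specific libraries, and no animal was sampled at both temperatures. The other 12 libraries came from 6 U. graciosus and 6 U. ornatus split over the same temperatures. The sources used here do not state the generation of the hybrids, their mothers' species or how they were obtained. The labels name separate animals, so the spread within a group is the spread between animals, with any difference in handling added to it.

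Cells above their usual temperature meet misfolded proteins. Chaperones of the HSP90, HSP70, HSP40 and small heat shock families hold or refold them, and the proteasome removes those that cannot be saved. In lizards the liver also makes the plasma proteins, stores and releases fuel, makes bile acids and disposes of nitrogen as uric acid, so a shift of its transcripts can touch each of these tasks. The series asks how antioxidant genes behave in hybrids, and the comparison here covers all genes at the warmer against the cooler temperature.

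The hybrids' libraries held 20080212 to 35002548 counts. Of 22773 genes in the table, 15856 had enough counts to test. Levels are given as CPM, a gene's counts on a common library scale set by the trimmed mean of M values (TMM), and differences on the log2 scale as 40 °C minus 36 °C. Between 72.9% and 75.9% of the low counts in a hybrid library were even numbers, so a count may not equal 1 fragment, and the counts were also tested after halving.

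The 3 heated livers were not alike. Animal X stood apart from the other 5 hybrids, while I and K lay as close to the unheated animals as those lay to each other. Across genes, log2 CPM of X correlated with the other hybrids at 0.873 to 0.889, and the other pairs at 0.95 to 0.97. In X the 10 most abundant genes took 8.99% of the counts, against 23.0% to 25.6% in the others. X also had 17544 genes with a count, against 16729 to 17208 elsewhere among hybrids. The TMM factor of X was 1.43, against 0.870 to 0.977 in the others, so the CPM of its tested genes summed to less. A gene was called private to an animal when its log2 CPM lay at least 1 above, or at least 1 below, all other hybrids, among 10304 genes with a mean of at least 5 CPM. X had 690 private genes above and 974 below. Heated I and K had 22 and 16 above and 18 and 8 below, and unheated A, B and D had 20, 51 and 19 above and 16, 31 and 43 below. So the private genes of I and K were about as few as those of animals that were not heated.

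**Figure D1:**
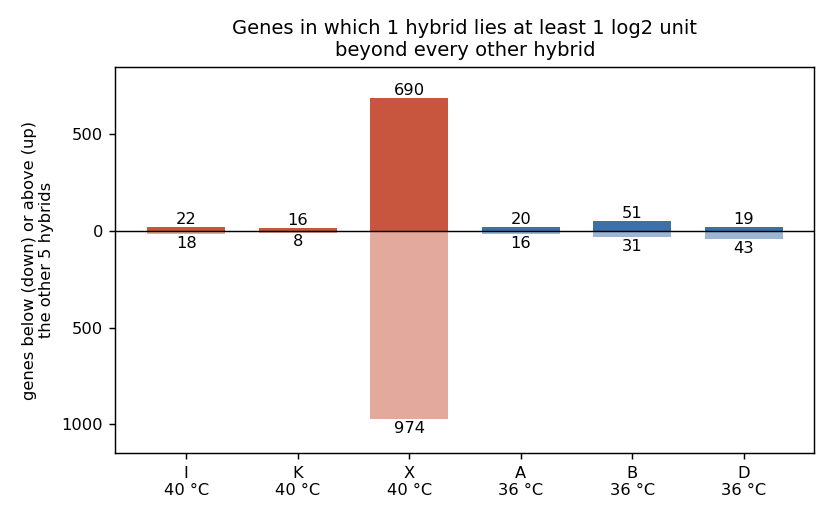
Bars give the number of genes in which an animal's log2 CPM lies at least 1 above (upward) or below (downward, paler) all 5 other hybrids, for heated I, K and X (red) and unheated A, B and D (blue). X has 690 genes above and 974 below, and no other hybrid has more than 51 in either direction.

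The animals were also placed by the genes that set the parents apart. Over 3045 genes that differed between the parental species, each hybrid was given the median position of its log2 CPM, with 0 at the U. ornatus mean and 1 at the U. graciosus mean. The index was 1.0, 0.943 and 0.717 in heated I, K and X, and 0.938, 0.960 and 0.927 in unheated A, B and D. Thus 5 hybrids sat at the U. graciosus end and X lay below them. Means of 0.887 ± 0.151 at 40 °C and 0.941 ± 0.0170 at 36 °C (SD, n = 3 each) differed by less than the spread of the heated animals (two-sided exact permutation test p = 0.90, the smallest p this design allows being 0.10). It is a position of expression, and ancestry itself was not measured.

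No gene passed the test of the hybrid heat effect. In edgeR's quasi-likelihood test, with Benjamini-Hochberg adjustment over all genes, 0 of 15856 genes (0%) had an adjusted p under 0.05, and the smallest was 0.546. At an unadjusted p under 0.05 there were 757 genes higher (4.77%) and 482 lower (3.04%). DESeq2 called 55 of 15455 genes (0.356%), 31 higher and 24 lower at 40 °C, of which 22 and 19 had groups without overlap. It gave no adjusted p to 401 further genes, which it could therefore not call. Among them were the chaperone genes HSP90AA1, HSPA2, HSPH1, HSPB6, DNAJA4 and DNAJB1, and also PCK1, SPP1 and COL3A1. Without X, edgeR again called none, with 715 genes at an unadjusted p under 0.05 and a smallest adjusted p of 0.941. Genes are therefore given below by their values in each animal, and no difference is described as a rise or a fall. Log2 differences carry standard errors (SE, 3 animals against 3), followed by the value without X. The SE was worked back from edgeR's test, whose estimate of spread is shared by all 18 libraries. It is therefore not the spread of the hybrids alone.

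In 811 genes (5.11% of those tested) all 3 heated livers lay above all 3 unheated ones, and in 914 genes (5.76%) all lay below. In these genes, as over all genes, the animals contributed unequally. X was the farthest from the 36 °C mean in 486 of the 811 and in 572 of the 914. Over all 15856 genes X was the farthest heated animal in 9979, so its share here is not particular to these genes. The median distance from that mean was 0.44, 0.45 and 0.68 in I, K and X among the higher genes, and -0.54, -0.52 and -0.96 among the lower ones. Asking for a distance of at least 1 from every unheated animal left few genes that all heated livers shared. Among 13409 genes with a mean of at least 1 CPM, 1290 lay that far above in X alone, 61 in I alone and 61 in K alone, and 4 in all 3. Below, 1331 did so in X alone, 101 in I alone, 63 in K alone, and 12 in all 3. Those 16 genes included RPS6KA2, ANO6, FES, CDC42BPG, TSC22D3, ETNPPL and the muscle genes ATP2A1 and MYLPF, together with ELF3 and G6PC2, which were singled out after their values were seen. ELF3, an epithelial transcription factor, was at 17.7, 24.5 and 24.8 CPM in I, K and X and 5.45, 5.84 and 6.69 CPM in A, B and D. G6PC2, a glucose-6-phosphatase best known from the mammalian pancreas, was at 0.501, 0.396 and 0.490 against 1.98, 2.08 and 1.67 CPM.

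Some genes had similar levels in all heated livers. RPS6KA2, a ribosomal S6 kinase of growth factor signalling, was at 9.94, 12.2 and 16 CPM in I, K and X and at 2.69, 2.61 and 3.09 CPM in A, B and D. Every heated liver held more than 3 times the highest unheated value, and the difference was 2.18 ± 0.47 (1.99 without X). ZNHIT1, a subunit of the SRCAP chromatin remodeller, had 37, 42.6 and 49.2 CPM at 40 °C and 23.9, 17.4 and 22.4 CPM at 36 °C, a difference of 1.02 ± 0.22 (0.91).

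Genes of transcription and of mitochondria were also among them. INTS8, a subunit of the Integrator complex that ends the transcription of small nuclear RNAs, was at 24.1, 34.9 and 22.3 CPM in the heated animals and 11.4, 13.2 and 15.6 CPM in the unheated ones (1.02 ± 0.23, and 1.14 without X). GTF2H5, the smallest subunit of the TFIIH complex of transcription and nucleotide excision repair, was at 19.6, 15.2 and 22.9 against 10.2, 10.1 and 8.86 CPM (0.98 ± 0.24, and 0.84). ACOT13, a mitochondrial thioesterase that splits acyl-CoA, was at 10.9, 11 and 14.4 CPM in I, K and X and 6.72, 2.47 and 4.96 CPM in A, B and D (1.36 ± 0.32, and 1.22). MICOS13, which shapes the inner mitochondrial membrane, was at 20.6, 22.3 and 29.3 against 11.8, 14.8 and 11.2 CPM (0.93 ± 0.22, and 0.77). In each of these genes X was within a factor of 2 of I and K. DESeq2 gave adjusted p of 0.00737, 0.0181, 0.0252, 0.0351, 0.0271 and 0.0351 for the 6 genes in the order named.

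Genes lower in every heated liver included transporters and kinases. SLC38A4, which carries neutral amino acids into hepatocytes, was at 139.9, 153 and 63.9 CPM in I, K and X, against 346, 653 and 250.0 CPM in A, B and D. Its highest heated value lay below its lowest unheated value, a difference of -1.81 ± 0.42 (-1.50 without X). SLC22A23, an orphan member of the organic ion transporter family, stood at 38.8, 34.9 and 19.4 CPM when heated and 91.1, 81.1 and 75.5 CPM when not (-1.41 ± 0.33, and -1.16). PIKFYVE, the lipid kinase that makes phosphatidylinositol 3,5-bisphosphate on endosomes, was nearly level among the heated livers, at 30.8, 32.1 and 29.5 CPM in the heated and 84, 58.7 and 54.8 CPM in the unheated animals (-1.10 ± 0.27, and -1.06). CDC42BPG, a kinase that acts with CDC42 on the actin skeleton, had 2.59, 2.77 and 1.85 CPM at 40 °C and 18.5, 14.4 and 12.7 CPM at 36 °C (-2.66 ± 0.66, and -2.50). ETNPPL, which breaks down phosphoethanolamine, was at 5.18, 28.4 and 4.23 CPM in I, K and X and at 122, 115 and 156 CPM in A, B and D. K was the highest of the heated livers for ETNPPL and still lay below every unheated one.

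**Figure D2:**
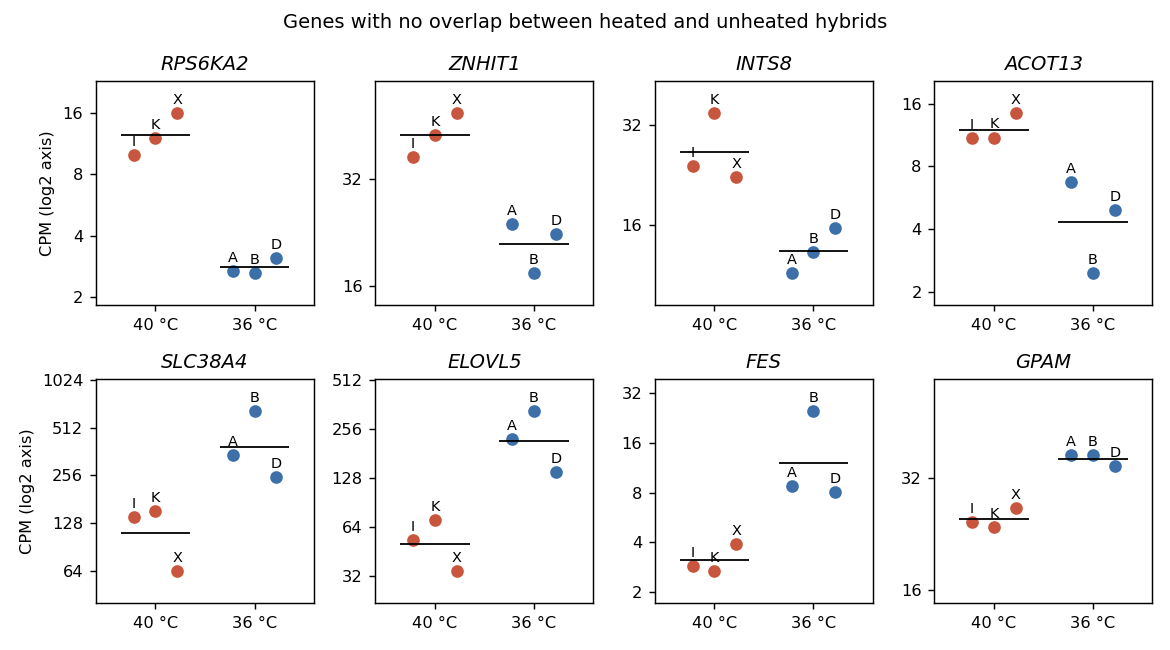
CPM on a log2 axis of 8 genes in heated hybrids I, K and X (red) and unheated A, B and D (blue), with a line at each group's mean of log2 CPM. In all 8 genes the groups do not overlap, and RPS6KA2 is at 9.94, 12.2 and 16 CPM in I, K and X, against 2.69, 2.61 and 3.09 CPM in A, B and D.

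Gene lists were compared by the median of their genes in each animal. Of 69 lists with at least 5 tested genes, X had the median farthest from the 36 °C mean in 55, I in 7 and K in 7. The list medians of all 3 heated livers lay above those of all unheated ones in 3 lists (4.35%) and below in 5 (7.25%). These shares are near the 5.11% and 5.76% of single genes without overlap, so a list with separate medians is given as a description, and counts of list members without overlap stand against those same shares. The higher lists were the TRiC chaperonin and prefoldin, the mitochondrial ribosome and the expression of the mitochondrial genome. The lower ones were fatty acid and triglyceride synthesis, bile acid synthesis and transport, liver transcription factors, plasma carriers and apolipoproteins, and the lysosome. For scale, over all 15856 genes the median log2 difference was 0.04 (-0.02 without X), with 8459 genes above 0.

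**Figure D3:**
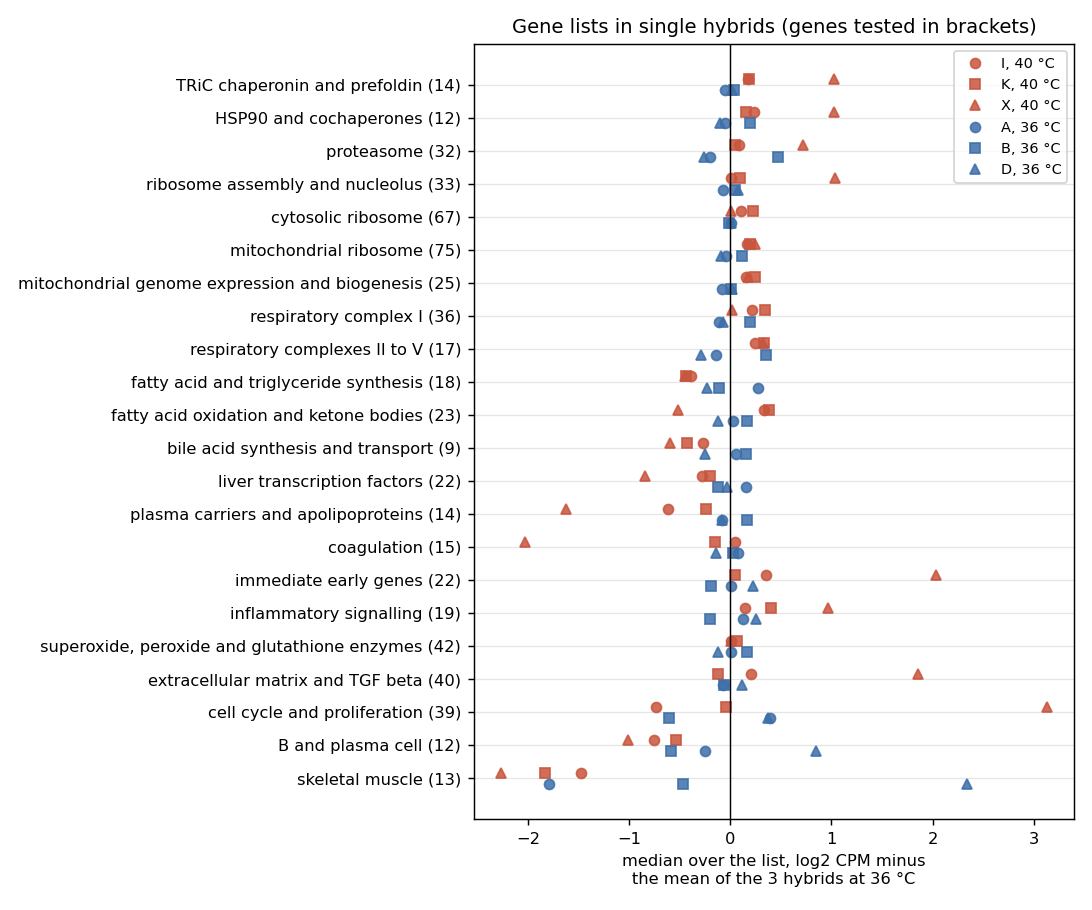
For 22 gene lists, the median over tested genes of log2 CPM minus the mean of the unheated hybrids, in heated I, K and X (red, upper) and unheated A, B and D (blue, lower). X lies far out for immediate early genes (2.03), matrix (1.86), cell cycle (3.13) and coagulation (-2.03), whereas the mitochondrial ribosome holds I, K and X at 0.16, 0.20 and 0.24.

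Many protein folding genes were high in X, and some of them were higher in I and K as well. HSP90AA1, the inducible HSP90 of the cytosol, stood at 403, 417 and 1694 CPM in I, K and X and at 319, 229 and 208 CPM in A, B and D. All heated livers lay above all unheated ones, X by far the most, and the difference was 1.73 ± 0.93 with X and 0.70 without. HSPH1, an exchange factor of HSP70, followed the same order, with 14.2, 13.4 and 104 against 8.98, 5.05 and 6.03 CPM (2.71 ± 1.05, and 1.04). HSPB6, a small heat shock protein, was at 13.4, 8.71 and 294 CPM in the heated and 3.09, 5.66 and 5.57 CPM in the unheated animals (4.46 ± 1.67, and 1.22). DNAJA4, an HSP40 partner of HSP70, was at 17, 17 and 128 against 9.41, 11.5 and 4.71 CPM (2.66 ± 1.22, and 0.99). SERPINH1, which folds collagen inside the endoplasmic reticulum, was at 29.2, 15.7 and 151 CPM in I, K and X and 10.8, 6.12 and 5.17 CPM in A, B and D (3.15 ± 0.93, and 1.60). For these 5 genes I and K stood above the unheated animals by a modest margin and X by a wide one. DESeq2 gave SERPINH1 an adjusted p of 0.0438 and gave none to the other genes of this group.

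DNAJB5, an HSP40, was lower in every heated liver, with a difference of -0.57. The chaperones that follow overlapped between the groups. HSPA8, the constitutive HSP70, had 62.6, 107 and 697 CPM at 40 °C and 100.1, 90.6 and 47.6 CPM at 36 °C, with I below A and B. HSPA2, an HSP70 best known from the testis of mammals, was at 3.26, 4.28 and 657 CPM in I, K and X and 4.39, 3.44 and 7.09 CPM in A, B and D, a difference of 5.48 ± 2.34 that turned to -0.39 without X. DNAJB1, a heat-inducible HSP40, was at 49.5, 51.6 and 187 against 63.5, 51.8 and 34.1 CPM, and HSPD1, the mitochondrial HSP60, at 547, 492 and 1628 against 311, 626 and 314 CPM. HSPA5, the HSP70 of the endoplasmic reticulum, varied widely in both groups, at 1302, 513 and 1244 CPM when heated and 538, 1541 and 128 CPM when not, so unheated B exceeded every heated animal. HSPB1, a small heat shock protein, differed by 0.60 ± 0.71 with X and -0.73 without. HSF1, the transcription factor of the heat shock response, differed by -0.22 ± 0.20 (-0.08 without X).

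**Figure D4:**
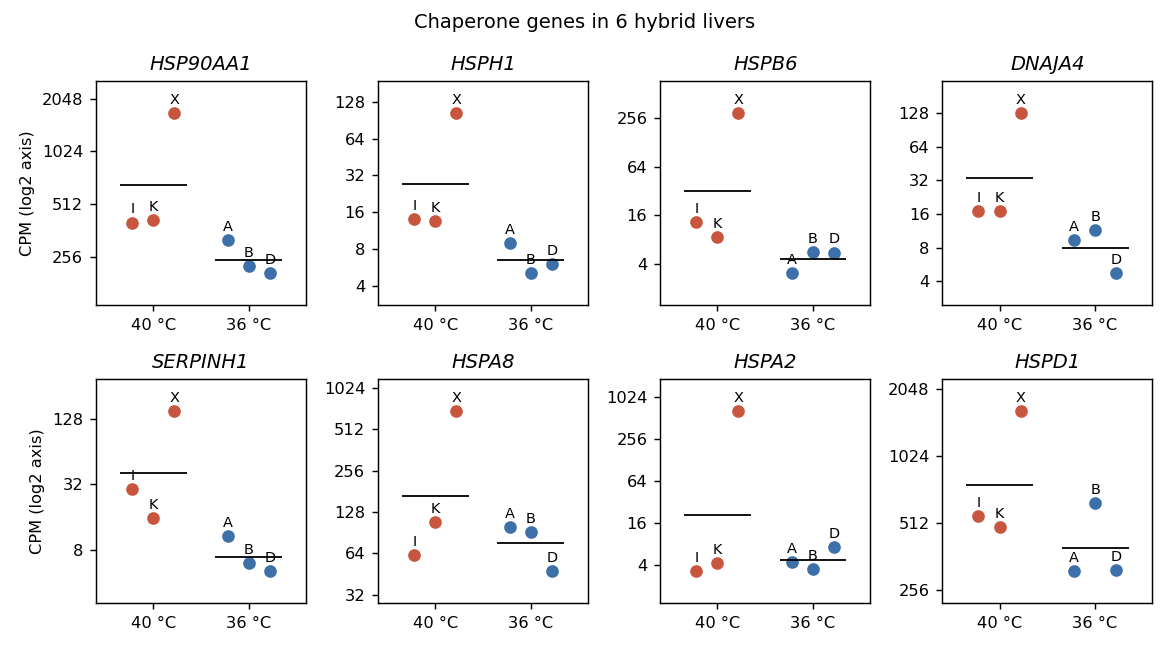
CPM on a log2 axis of 8 chaperone genes in heated hybrids I, K and X (red) and unheated A, B and D (blue), with a line at each group's mean of log2 CPM. X is the highest animal in every panel, and the groups do not overlap for HSP90AA1, HSPH1, HSPB6, DNAJA4 and SERPINH1.

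As lists, HSP90 and its cochaperones had 10 of 12 genes above 0 and a median of 0.42 (0.10 without X), with 4 higher without overlap, against 5.11% of all genes. FKBP4, an HSP90 cochaperone of steroid receptors, was at 164, 151 and 269 against 107, 143 and 108 CPM. The HSP70 list stood at 0.42 (-0.03), and the endoplasmic reticulum list at 0.23 (-0.01). The HSP40 list stood at 0.41 (0.02), with 2 of 11 genes higher and 1 lower without overlap (5.11% and 5.76% of all genes). Small heat shock genes went the other way, at -0.30 (-0.41), with 2 of 5 genes above 0. Of these 5, 1 was higher and 1 lower without overlap. Their medians were -0.35, -0.28 and -0.08 in I, K and X and 0.08, 0.03 and -0.11 in A, B and D. In the list of TRiC, the ring that folds actin and tubulin, and of prefoldin, which delivers them, all 14 genes lay above 0. Its median was 0.59 (0.16 without X, 12 of 14 above 0), and its medians by animal were 0.17, 0.18 and 1.03 in I, K and X and -0.05, 0.03 and 0.02 in A, B and D. PFDN4 and PFDN2, prefoldin subunits, were at 33, 25.3 and 44.1 and 27.7, 24 and 33.6 CPM in I, K and X, against 23.2, 21.7 and 19.7 and 20.1, 22.5 and 16.5 CPM in A, B and D. The proteasome list had 30 of 32 genes above 0 with X and 16 of 32 without it. Its median was 0.28 with X and 0.02 without, and its medians by animal were 0.09, 0.04 and 0.72 in I, K and X and -0.20, 0.47 and -0.26 in A, B and D. SQSTM1, which delivers tagged proteins to autophagy, did keep its groups apart, at 274, 252 and 467 CPM when heated and 175, 168 and 217 CPM when not.

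The mitochondrial ribosome and genome expression lists had slightly higher medians in the heated livers, and no gene of them passed the test. Of 75 genes of the mitochondrial ribosome, which translates the messages of the mitochondrial genome, 59 lay above 0, with 12 higher without overlap and 1 lower (5.11% and 5.76% of all genes). Their median was 0.22, and 0.16 without X. The animals stood at 0.16, 0.20 and 0.24 in I, K and X and at -0.04, 0.12 and -0.09 in A, B and D, so I was little above unheated B. MRPL55 was at 16, 13.2 and 21.4 against 9.56, 11.1 and 10.1 CPM and MRPL14 at 25.9, 32.8 and 24.9 against 19, 14.8 and 22.6 CPM, both higher in each heated liver. MRPL50 went the other way, at 6.6, 7.76 and 8.74 CPM in the heated and 12.2, 13 and 11.4 CPM in the unheated animals. Genes for the expression of the mitochondrial genome had medians of 0.16, 0.25 and 0.17 in I, K and X, against -0.08, 0.01 and 0.02 in A, B and D, with 19 of 25 above 0. POLRMT, the RNA polymerase of mitochondria, was at 20.8, 21.7 and 21.7 against 17.3, 18.6 and 13.7 CPM.

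The respiratory chain lists showed more scatter. Respiratory complex I, which feeds electrons from NADH, had 32 of 36 genes above 0 with X and 34 of 36 without it. Its medians were 0.22, 0.34 and 0.02 in I, K and X and -0.11, 0.20 and -0.07 in A, B and D, with unheated B above X. Its 7 genes higher without overlap (5.11% of all genes) included NDUFS3, at 88.6, 82.3 and 72.5 against 61.6, 63.9 and 58.4 CPM, and NDUFA3, at 28.7, 28.7 and 39.5 against 22.7, 22.4 and 23.2 CPM. Complexes II to V had 15 of 17 genes above 0, with medians of 0.25, 0.33 and 0.32 in I, K and X and -0.14, 0.35 and -0.29 in A, B and D, where unheated B was the highest of all. Cytosolic ribosomal proteins had a median of 0.13 and 16 of 67 genes higher without overlap, against 5.11% of all genes, RPL3 at 779, 763 and 854 against 626, 634 and 610.1 CPM among them. Their medians were 0.11, 0.22 and 0.00 in I, K and X and 0.01, -0.01 and 0.00 in A, B and D, so X lay level with the unheated animals. Genes of ribosome assembly were high in X alone, with medians of 0.00, 0.09 and 1.03 in I, K and X and -0.07, 0.05 and 0.08 in A, B and D.

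Lipid synthesis had lower list medians in all heated livers, while its genes in X went both ways, as all genes tested did. The list of fatty acid and triglyceride synthesis had medians of -0.39, -0.44 and -0.45 in I, K and X, against 0.28, -0.11 and -0.23 in A, B and D. Over the list the median difference was -0.25, with 10 of 18 genes below 0 and 3 lower without overlap, against 5.76% of all genes. Without X the median was -0.44, with 2 of 18 genes above 0. X had 7 genes above every unheated animal and 8 below, whereas I had 1 above and 7 below, and K 2 and 9. Over all 15856 genes X lay above in 5815 and below in 5600, I in 3692 and 3691, and K in 3731 and 3523. ACACA, the carboxylase that commits acetyl-CoA to fatty acids, was at 51.7, 35.5 and 37.7 CPM in the heated and 122, 116 and 66 CPM in the unheated animals (-1.29 ± 0.53, and -1.22 without X). ELOVL5, which lengthens polyunsaturated fatty acids, was at 53.1, 70.7 and 34.5 against 222, 333 and 139 CPM (-2.13 ± 0.62, and -1.90). GPAM, which adds the first fatty acid to glycerol 3-phosphate, had the narrowest spread of the 3, at 24.4, 23.6 and 26.6 CPM in I, K and X and 36.9, 36.8 and 34.4 CPM in A, B and D (-0.54 ± 0.16, and -0.58). PIK3R1, the regulatory subunit of the insulin-controlled PI3 kinase, was at 145, 182 and 188 CPM in I, K and X and 642, 433 and 218 CPM in A, B and D.

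Fat oxidation divided the heated livers. Its list stood at 0.34, 0.39 and -0.52 in I, K and X and at 0.02, 0.16 and -0.12 in A, B and D, and the median difference was 0.10 with X and 0.32 without it. ACADL, a long-chain acyl-CoA dehydrogenase, was high in all 3 heated livers, at 91.7, 72.1 and 93.2 against 64.4, 53.7 and 43.6 CPM (0.67 ± 0.20). ACADVL, its very-long-chain relative, was at 757, 560.0 and 198 CPM in I, K and X and 289, 369.7 and 287 CPM in A, B and D, with X the lowest of all animals. SLC25A20, the carnitine carrier of the inner mitochondrial membrane, was at 131, 185 and 69.4 against 170.3, 287 and 268 CPM, and CPT1A, which makes the acylcarnitines, at 339, 399 and 103 against 306, 130.5 and 524 CPM. Both overlapped between groups. In bile acid synthesis and transport, 7 of 9 genes lay below 0 (median -0.48, and -0.39 without X). HSD3B7, an early enzyme of that pathway, was at 14.6, 16.2 and 5.04 CPM in the heated and 32.8, 76.9 and 22.7 CPM in the unheated animals (-1.89 ± 0.50, and -1.51), NR1H4, the bile acid receptor, at 91.3, 69.2 and 71.2 against 127, 122 and 86.4 CPM, and NR0B2, the repressor that NR1H4 induces, at 46.2, 41.9 and 32.5 against 22.3, 18.3 and 24.3 CPM. HSD3B7 was lower and NR0B2 higher in every heated liver.

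Genes of sugar and amino acid handling showed no common pattern. PCK1, the cytosolic enzyme of glucose formation, was at 0.585, 0.0792 and 719 CPM in I, K and X and 0.433, 0.358 and 0.203 CPM in A, B and D, so X was the 1 hybrid with more than 1 CPM. PCK2, its mitochondrial counterpart, was lower in every heated liver, at 2165, 2100.1 and 1057 CPM against 2648, 4029.7 and 3123 CPM (-0.88 ± 0.36, and -0.61 without X). PYGM, the glycogen phosphorylase of muscle in mammals, was at 2.67, 2.53 and 1.36 against 5.04, 3.65 and 9.02 CPM. TAT, which starts the breakdown of tyrosine, was at 266, 459 and 299.9 CPM in the heated and 497, 1021 and 816 CPM in the unheated animals, without overlap. Amino acid catabolism as a list stood at 0.08, 0.13 and -0.68 in I, K and X and -0.21, 0.36 and -0.04 in A, B and D, and its median of -0.18 was 0.05 without X. ASS1 of the urea cycle, which also makes arginine, was at 101, 103 and 20.8 CPM in the heated and 155, 217 and 109 CPM in the unheated animals (-1.09 ± 0.58, and -0.64), and HAAO, of tryptophan breakdown, at 121, 93.3 and 26.4 against 165, 300.3 and 145 CPM (-1.34 ± 0.70, and -0.92). PPAT, the first committed step of purine synthesis and so of uric acid, was at 236, 302 and 177 CPM in I, K and X and 292, 893 and 484 CPM in A, B and D, with K just above A. LPIN1, a phosphatidate phosphatase that also coactivates fat burning genes, was at 46.9, 44.9 and 36.2 against 39.6, 82.4 and 265 CPM, with D far above the rest.

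Plasma protein genes were low in X and mostly near the unheated level in I and K. Coagulation factors had medians of 0.05, -0.15 and -2.03 in I, K and X and 0.08, 0.02 and -0.14 in A, B and D, with 14 of 15 below 0, and -0.48 over the list (-0.11 without X). SERPIND1, a thrombin inhibitor, was at 1587, 1636 and 286 CPM in the heated and 1878, 1946 and 1646 CPM in the unheated animals, apart by little in I and K. Acute phase and complement genes stood at 0.35, 0.12 and -1.56 in I, K and X and 0.06, 0.15 and -0.24 in A, B and D, with C9, the last component of the complement pore, at 9607, 9745 and 1178 against 11129.5, 14135 and 7465 CPM. Carriers and apolipoproteins had medians of -0.62, -0.24 and -1.63 in I, K and X and -0.08, 0.17 and -0.08 in A, B and D. Although these medians were lower in each heated liver, 0 of 14 genes were lower without overlap (5.76% of all genes). K and X each had 3 of the 14 above every unheated animal. Over all 15856 genes K lay above in 3731 and X in 5815. APOA1, the main protein of high-density lipoprotein, was at 1773, 1277 and 607 CPM in I, K and X and 3782, 4908 and 1356 CPM in A, B and D, where D lay between K and I. Liver transcription factors had 18 of 22 genes below 0, with medians of -0.28, -0.21 and -0.84 in I, K and X and 0.15, -0.12 and -0.04 in A, B and D. RXRA, the shared partner of nuclear receptors, was at 69.1, 68.3 and 39.8 against 81.6, 106 and 80.6 CPM (-0.60 ± 0.25, and -0.38). In the growth hormone axis, IGFALS, which holds IGF in plasma, was at 353, 375 and 49.9 CPM in I, K and X and 832, 397 and 479 CPM in A, B and D (-1.14 ± 0.56, and -0.65), and IGFBP2, an IGF binding protein, at 72.1, 82.8 and 14.4 against 154, 88.5 and 191 CPM (-1.36 ± 0.75, and -0.90). Both were lower in each heated liver, X by the most.

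Single genes of several further lists are given with the medians of their lists. Lysosome genes had medians of -0.14, -0.12 and -0.15 in I, K and X and 0.12, -0.09 and -0.03 in A, B and D, with 3 of 25 lower and 1 higher without overlap (5.76% and 5.11% of all genes). SMPD1, the acid sphingomyelinase, was at 45.3, 52.1 and 54 CPM in the heated and 82.5, 73.1 and 66.6 CPM in the unheated animals (-0.55 ± 0.27, and -0.60 without X), while CTSL, a lysosomal protease, was at 419, 488 and 2434 against 426, 452 and 399.6 CPM, high in X alone. Iron and metal genes had medians of -0.11, -0.10 and -0.78 in I, K and X and 0.09, -0.06 and -0.11 in A, B and D, with X the lowest. Of them TFRC, the transferrin receptor, was at 60.5, 72.9 and 52.5 CPM in I, K and X and 144, 87.2 and 138 CPM in A, B and D (-0.99 ± 0.37, and -0.88), and IREB2, which senses iron and binds the messages of such genes, at 56.4, 57.8 and 43.9 against 72.7, 68.5 and 68 CPM (-0.40 ± 0.17, and -0.28). TFRC and IREB2 were lower in each heated liver. Splicing genes stood at 0.06, 0.05 and 0.28 in I, K and X and -0.11, 0.10 and -0.02 in A, B and D. Of these, SRSF7 was at 58.4, 66 and 73.7 CPM when heated and 49, 47.2 and 36.7 CPM when not (0.58 ± 0.19, and 0.49), and SRSF1 at 153, 175 and 251 against 137, 137 and 132 CPM (0.51 ± 0.25, and 0.28). Circadian genes stood at -0.01, -0.15 and -0.64 in I, K and X and -0.14, -0.06 and 0.38 in A, B and D, and hypoxia genes at 0.34, 0.06 and -0.27 in I, K and X and 0.09, -0.22 and 0.01 in A, B and D, with X the lowest in both. CLOCK, a driver of the circadian rhythm, was at 38.3, 47.9 and 41.7 CPM in I, K and X and 56.1, 51.1 and 52.3 CPM in A, B and D (-0.32 ± 0.16, and -0.30), and ANKRD37, a gene that hypoxia induces, at 3.47, 4.12 and 6.12 against 1.08, 2.44 and 1.67 CPM (1.40 ± 0.50, and 1.14). In none of these genes did the difference change sign without X, though that of CTSL went from 1.39 with X to 0.09 without.

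Hepatocyte markers were abundant in all 6 libraries and lower in X. Of 19 markers, 12 were tested, and none of these was at 0 in all 6. Together they summed to 141754, 112671 and 34285 CPM in I, K and X and 151421, 166089 and 101701 CPM in A, B and D. All tested genes summed to 701498 CPM in X and 1023870 to 1149210 CPM in the other hybrids, so these sums rest on unequal totals. APOB, the protein of very-low-density lipoprotein, was at 22175, 20020.5 and 6841 CPM in the heated and 22617, 21449 and 24206 CPM in the unheated animals, and TF, transferrin, at 58339, 45768 and 7251 against 70102, 64352 and 39637 CPM. Their medians stood at 0.01, -0.17 and -1.74 in I, K and X and 0.22, 0.43 and -0.55 in A, B and D. In bulk tissue, fewer cells of a type and less RNA per cell cannot be told apart.

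Genes of early stress signalling were far higher in X than in I and K. Immediate early genes, the first to be transcribed after a stimulus, had 22 of 22 above 0 with X and 12 of 22 without. Their median was 0.95 with X and 0.19 without, and 7 of 22 had an unadjusted p under 0.05 and were higher, against 4.77% of all genes. Still, 0 of 22 were higher without overlap, against 5.11% of all genes. ATF3, a stress-induced transcription factor, was at 40.4, 18.9 and 145 CPM in I, K and X and 19.7, 9.28 and 16.2 CPM in A, B and D (2.17 ± 0.56, and 0.98), and MYC at 13, 7.96 and 61.4 against 9.38, 3.8 and 6.89 CPM. IER3 was at 1.09, 0.871 and 23.6 against 0.495, 0.895 and 0.608 CPM. Inflammatory signalling had 5 of 19 genes higher without overlap, against 5.11% of all genes. Its medians were 0.15, 0.40 and 0.97 in I, K and X and 0.12, -0.20 and 0.26 in A, B and D, with unheated D above I. X was the farthest heated animal in 13 of 19 genes, near its share over all genes (9979 of 15856). NFKBIA, the inhibitor that NF-kappa B induces, was at 24.4, 39 and 50.1 CPM in the heated and 17.9, 14 and 23.8 CPM in the unheated animals (1.03 ± 0.35, and 0.78). NFKBIZ, a nuclear cofactor of the same pathway, was at 36, 93.9 and 72.7 against 19.8, 22.3 and 30.4 CPM (1.48 ± 0.65, and 1.43), and SOCS3, the feedback inhibitor of cytokine receptors, at 17.3, 8.47 and 20.4 against 8.05, 5.16 and 5.07 CPM (1.33 ± 0.64, and 1.08). For these 3 genes K or I, and not only X, lay above the unheated animals. TSC22D3, a gene that glucocorticoids induce in mammals, was lower in all heated livers, at 24.3, 30.7 and 5.94 CPM against 88.3, 65.1 and 68 CPM (-1.86 ± 0.50, and -1.42). The list of glucocorticoid-responsive genes did not share this direction, with 9 of 15 genes above 0 and a median of 0.29 (-0.23 without X). Its medians were -0.01, -0.21 and 0.26 in I, K and X and -0.23, -0.11 and 0.33 in A, B and D.

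Antioxidant enzymes, the genes of the series' own question, had list medians near 0, over genes that went both ways in X. The list of superoxide, peroxide and glutathione enzymes had 24 of 42 genes above 0 and a median of 0.03 (0.01 without X). Its medians were 0.01, 0.06 and 0.01 in I, K and X and 0.01, 0.16 and -0.13 in A, B and D, with 1 gene higher and 2 lower without overlap (5.11% and 5.76% of all genes). In X 16 of the 42 genes lay above every unheated animal and 17 below, and X was the farthest heated animal in 30. Over all 15856 genes X lay above in 5815 and below in 5600, and was the farthest in 9979. SOD1 and SOD2, the superoxide dismutases of cytosol and mitochondria, differed by 0.04 ± 0.32 and 0.16 ± 0.24, catalase (CAT) by 0.01 ± 0.50, and GPX4, which clears lipid peroxides, by 0.01 ± 0.33. OXR1, which guards against oxidative damage, was lower in every heated liver, at 33.6, 48.9 and 42.5 CPM in I, K and X and 101, 136 and 66 CPM in A, B and D (-1.28 ± 0.33, and -1.28). HMOX1, the haem oxygenase, was high in X alone, at 74.7, 98.5 and 370.0 against 96.9, 64.6 and 107 CPM, as was PRDX1, a peroxiredoxin, at 11, 13.8 and 85.4 against 14.9, 10.5 and 9.67 CPM. The list of NRF2, the regulator of antioxidant genes, and of NADPH supply had a median of 0.02 (-0.03). Of its 21 genes, 3 were lower and 0 higher without overlap (5.76% and 5.11% of all genes). Among the other fixed genes, GPX1, a glutathione peroxidase, differed by -0.08 ± 0.40 (-0.52 without X), PRDX3, the mitochondrial peroxiredoxin, by -0.23 ± 0.38 (0.05), and GCLC, of glutathione synthesis, by -0.16 ± 0.28 (0.12). TXNRD2, the mitochondrial thioredoxin reductase, was at 14.2, 15.6 and 36 CPM in I, K and X and 10.4, 14.5 and 11.1 CPM in A, B and D, with X standing out. NQO1, a quinone reductase, was at 1, 0.950 and 1.12 against 1.3, 1.86 and 1.62 CPM, low in every animal.

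DNA repair lists lay above 0 with X and nearer 0 without it. Break signalling and repair had 22 of 27 genes above 0 with X and 15 of 27 without, and base excision repair 18 of 24 with X and 11 of 24 without. Their medians were 0.15 and 0.16 with X, and 0.05 and -0.08 without. OGG1, which removes oxidised guanine, was at 4.09, 3.25 and 4.34 CPM in the heated and 3.96, 5.26 and 3.65 CPM in the unheated animals, with the groups overlapping. BRCA1, of homologous recombination, was at 7.86, 8.12 and 32.2 against 6.65, 5.05 and 7.24 CPM. APEX1, which cuts abasic sites, was at 1.34, 1.82 and 46.9 CPM in I, K and X and 2.85, 14 and 1.92 CPM in A, B and D, with X and unheated B the highest. FANCI, of crosslink repair, was at 5.98, 4.47 and 35.7 CPM in the heated and 3.81, 2.01 and 2.89 CPM in the unheated animals, higher in all 3 heated livers (2.41 ± 0.90, and 0.85). ENDOG, a mitochondrial nuclease, was at 18.8, 16.5 and 10.2 against 10, 10.2 and 12.3 CPM, with I and K above every unheated animal and X among them. Targets of p53, which halts the cell cycle after damage, had medians of -0.19, -0.03 and 1.15 in I, K and X and -0.07, -0.02 and 0.03 in A, B and D. CDKN1A, the cell cycle brake that p53 induces, was at 25.7, 22 and 72.9 CPM when heated and 17.2, 20.3 and 15.7 CPM when not (1.18 ± 0.61, and 0.43), and MDM2, which degrades p53, at 15.3, 15.6 and 49.5 against 13.3, 17.9 and 13.5 CPM. CDKN1A kept its groups apart and MDM2 did not.

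Proliferation and matrix genes belonged to X. The cell cycle list stood at -0.74, -0.04 and 3.13 in I, K and X and 0.39, -0.61 and 0.37 in A, B and D, and X was the farthest heated animal from the 36 °C mean in 39 of 39 genes. Over all 15856 genes X was the farthest in 9979. The cell cycle median of 1.54 became -0.52 without X, and 37 of 39 genes lay above 0 with X and 7 of 39 without. CCNB1, the mitotic cyclin, was at 0.836, 3.76 and 69.1 CPM in I, K and X and 2.54, 1.22 and 4.05 CPM in A, B and D, and CDK1, its kinase, at 1.92, 3.29 and 45.1 against 3.13, 0.215 and 2.74 CPM. Matrix and TGF beta genes stood at 0.20, -0.12 and 1.86 in I, K and X and -0.08, -0.07 and 0.11 in A, B and D, with a median of 0.97 (0.04 without X). COL5A1 and COL3A1, fibrillar collagens, were at 9.9, 7.36 and 244 and 119.8, 96.1 and 1710.4 CPM in I, K and X, against 5.48, 7.27 and 11.3 and 102, 112 and 199 CPM in A, B and D. LOXL2, which crosslinks collagen, was at 6.69, 4.04 and 105 against 4.3, 3.62 and 4.46 CPM. SPP1, osteopontin, a marker of bile duct cells in the liver, was at 34.8, 30.8 and 1145 CPM in I, K and X and 44.8, 19.5 and 43.8 CPM in A, B and D.

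Markers of other cells were high or low in X beside these lists. Sums of CPM in X again rest on a smaller total than those of the other hybrids. Stellate cell and fibroblast markers summed to 1055, 862 and 4884 CPM in I, K and X and 835, 732 and 993 CPM in A, B and D, and their medians were 0.35, 0.05 and 1.89 in I, K and X. Cholangiocyte markers, 7 of 12 tested, summed to 152, 144 and 1304 against 176, 138 and 144 CPM. SPP1 alone made up 1145 CPM of the sum in X. Medians over the cholangiocyte list were 0.08, -0.24 and 0.54 in I, K and X and 0.22, 0.16 and -0.37 in A, B and D. Gut and pancreas markers, 7 of 16 tested, summed to 439, 111 and 36.6 CPM in the heated and 132, 322 and 38.5 CPM in the unheated animals. Here I and B were the highest and X the lowest. Medians over this list were 1.05, -0.13 and -1.27 in I, K and X and 0.21, 1.35 and -0.67 in A, B and D. AGR2, CDH17 and MUC13, epithelial genes of the mammalian gut and ducts, went the other way from that list in X. They were singled out after their values were seen and are given by animal. AGR2 was at 2.76, 1.19 and 53.6 CPM in I, K and X and 2.17, 5.23 and 1.32 CPM in A, B and D. CDH17 was at 1.09, 0.0792 and 31.8 against 1.21, 2.79 and 0.203 CPM, and MUC13 at 1.34, 1.43 and 30.9 against 1.3, 1.61 and 0.253 CPM, all 3 by far the highest in X. Erythrocyte markers summed to 494, 334 and 116 against 574, 401 and 467 CPM, lowest in X. The part of any of these cells in the differences of X was not tested.

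Muscle and B cell genes were highest in unheated D. Skeletal muscle markers, 13 of 19 tested, summed to 11.4, 9.54 and 10.8 CPM in I, K and X and 13, 30.8 and 183 CPM in A, B and D. The number below 0 was 13 of 13 and the median difference -2.47, and -0.99 without D, with medians by animal of -1.48, -1.83 and -2.27 in I, K and X and -1.80, -0.46 and 2.34 in A, B and D. ATP2A1, the calcium pump of muscle, had 0.0836, 0 and 0.0699 CPM when heated and 0.309, 2.79 and 40.3 CPM when not, from 4 counts in all against 883, so its fitted difference depends on the prior count. DESeq2 gave it the adjusted p of 7.46e-06, and MYLPF, a myosin light chain at 0.0836, 0.0792 and 0.0699 against 0.464, 1.22 and 9.52 CPM, one of 0.00462. B and plasma cell genes had 12 of 12 below 0 (median -0.74, -0.78 without X and -0.20 without D). Of these, 4 were lower without overlap, against 5.76% of all genes. CD79B, of the B cell receptor, was at 1.21, 0.752 and 1.68 CPM in the heated and 2.35, 2.18 and 10.8 CPM in the unheated animals, and PAX5, the B cell transcription factor, at 0.334, 1.03 and 0.699 against 2.01, 2.22 and 7.95 CPM, with D the highest for both. TLR7, a sensor of single-stranded RNA in immune cells, was at 5.39, 5.54 and 3.29 against 10.8, 9.92 and 19.3 CPM, and FES, a tyrosine kinase of blood cells, at 2.88, 2.69 and 3.92 against 8.76, 25 and 8.1 CPM. T and NK cell genes stood at -1.16, 0.39 and -1.74 in I, K and X, and at 0.14, -1.39 and 0.97 in A, B and D.

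Genes also stood apart in single livers other than X. In heated I they included CISH, a feedback inhibitor of cytokine and growth hormone receptors, at 275 CPM against 43.1, 14.8 and 75.1 CPM in A, B and D, and DIO2, which activates thyroid hormone, at 689 CPM against 255, 34.2 and 177 CPM. MSMO1 and SQLE, of cholesterol synthesis, and VLDLR, a lipoprotein receptor, were likewise highest in I, at 46, 19.9 and 43.5 CPM. The highest unheated values of these 3 were 13.5, 2.79 and 6.16 CPM, all in B. X also lay above B for SQLE and VLDLR, at 7.69 and 14.1 CPM, but not for MSMO1, at 13.3 CPM. In heated K they included PAK1, a kinase of the actin skeleton, at 87.7 CPM, against 23, 11.7 and 25.1 CPM in A, B and D. For PAK1, I and X also lay above every unheated animal, at 30 and 26.9 CPM. Unheated animals had theirs as well. GLUL, glutamine synthetase, and MTHFD1, of folate metabolism, were at 279, 304 and 238 and 1227, 1272 and 717 CPM in I, K and X, against 1679 and 5961 CPM in B. KIF13B, a kinesin, was at 84.4, 55.1 and 32.2 CPM in I, K and X, against 583 CPM in A.

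Set beside the parents, which share no animals with the hybrids, part of the direction was common. Of the 811 genes higher in all heated hybrids, 188 (23.2%) were also higher without overlap in U. graciosus, where 1150 genes were (7.25% of those tested, 16.3% of them shared), and 174 (21.5%) in U. ornatus, where 1925 were (12.1% of those tested, 9.04% shared). Of the 914 lower genes, 168 (18.4%) were also lower in U. graciosus, among 1182 (7.45% of those tested, 14.2% shared), and 161 (17.6%) in U. ornatus, among 1757 (11.1% of those tested, 9.16% shared). Opposite directions held for 16 and 50 of the 811 and for 21 and 62 of the 914, in U. graciosus and U. ornatus in that order. ZNHIT1 was higher without overlap in every lineage. In U. graciosus ZNHIT1 was at 29, 29.2 and 36.9 CPM in heated and 19.7, 15.7 and 17.9 CPM in unheated animals, and in U. ornatus at 32.8, 34.1 and 57.6 against 21.2, 24.5 and 22.7 CPM. GPAM was at 26.4, 28.4 and 23.3 CPM in heated and 31.9, 29.4 and 32.4 CPM in unheated U. graciosus, and at 13, 12.5 and 10.2 against 25.6, 36.3 and 33.9 CPM in U. ornatus.

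No gene's heat effect differed between hybrids and parents in edgeR. Against the mean of both parents 0 of 15856 genes (0%) had an adjusted p under 0.05, with 941 at an unadjusted p under 0.05 and 10 called by DESeq2. Against U. graciosus it was 0 (545 unadjusted, 3 in DESeq2) and against U. ornatus 0 (1529 unadjusted, 92 in DESeq2), with a smallest adjusted p of 0.0717. CISD3, an iron-sulfur protein of mitochondria, came among the nearest. It was at 28, 32.6 and 27.6 CPM in heated and 52.9, 55 and 45.1 CPM in unheated hybrids. In U. graciosus it was at 61.2, 51.4 and 40.3 CPM in heated P, Q and T and 37.2, 31.5 and 28 CPM in unheated J, R and S. In U. ornatus it was at 27.2, 22.4 and 58.1 CPM in heated L, N and O, against 19.2, 18.9 and 12.6 CPM in unheated E, F and H. Lower in heated hybrids and higher in heated parents, its difference of heat effects was -1.67 ± 0.36 (adjusted p = 0.792). TPP1, a lysosomal peptidase, had the smallest adjusted p against U. ornatus (0.0717), with 24.4, 29.4 and 21.7 CPM in heated and 31.8, 25 and 32.9 CPM in unheated hybrids, where the groups overlapped, and 21.6, 15.5 and 17.6 CPM in heated against 8, 6.73 and 7.01 CPM in unheated U. ornatus. LRFN5, an adhesion protein of synapses in mammals, had the same adjusted p, at 13.6, 10.1 and 10.6 CPM in heated and 20.5, 17 and 17 CPM in unheated hybrids, and 2.64, 4.02 and 2.62 CPM in heated and 0.758, 0.553 and 0.310 CPM in unheated U. ornatus.

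Some heated parents also had high chaperone levels. U. graciosus T and U. ornatus O each held the highest HSP90 list median of their heated group, which set X at 1.02, T at 0.81 and O at 0.68. On the HSP70 list T stood above X, with X at 0.90, T at 1.22 and O at 0.49. HSP90AA1 was at 1694, 10847 and 2467 CPM in X, T and O, and DNAJB1 at 187, 2196 and 134 CPM. SERPINH1, at 151, 139 and 39 CPM, and HSPD1, at 1628, 999.7 and 660 CPM, were highest in X. For the endoplasmic reticulum list X stood at 0.80, T at 1.59 and O at 1.50. HSPA2 was at 657 CPM in X, 6599 CPM in T and 87.6 CPM in O, SPP1 at 1145 CPM in X, 41.6 CPM in T and 428 CPM in O, and PCK1 at 719 CPM in X, 0.133 CPM in T and 85.4 CPM in O. So T was high for HSPA2 and not for SPP1 or PCK1. Hepatocyte and coagulation medians were -1.74 and -2.03 in X, 0.08 and -0.03 in T, and -1.07 and -1.09 in O. The cell cycle list was at 3.13 in X, 1.08 in T and -0.48 in O, and matrix genes at 1.86, 0.36 and -0.03. The mitochondrial ribosome stood at 0.16, 0.20 and 0.24 in heated I, K and X, 0.23, 0.25 and -0.14 in P, Q and T, and -0.04, -0.15 and 0.15 in L, N and O. Fatty acid and triglyceride synthesis stood at -0.39, -0.44 and -0.45 in I, K and X, -0.22, -0.08 and 0.03 in P, Q and T, and -0.16, 0.28 and 0.06 in L, N and O. These are levels side by side, and the difference between lineages was tested by gene only.

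**Figure D5:**
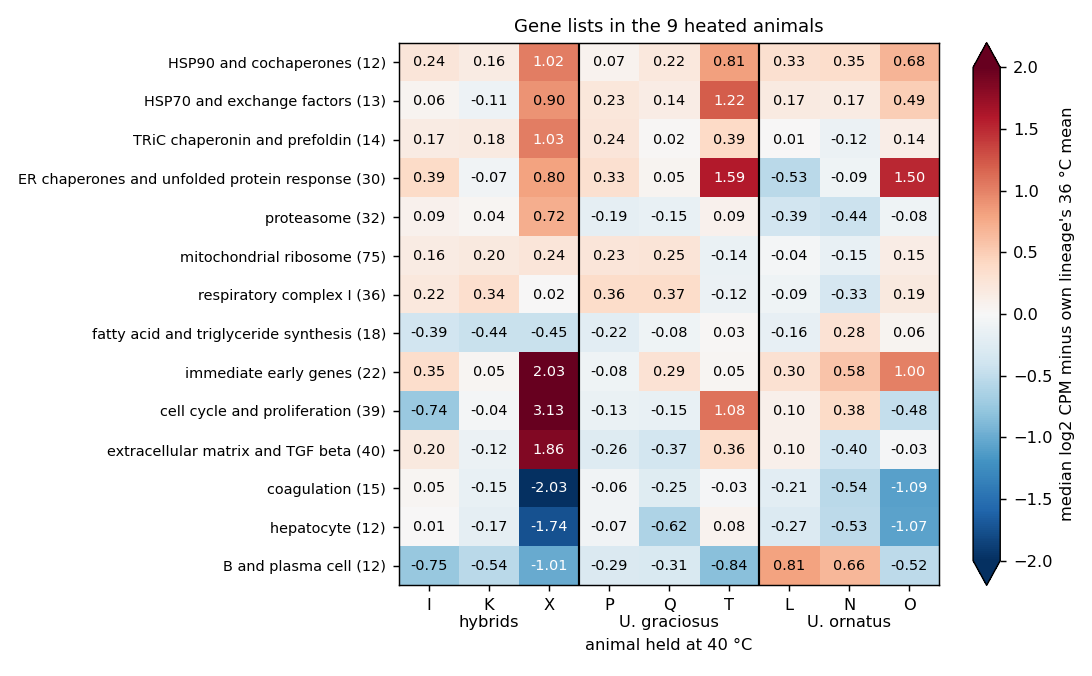
Each cell gives the median over a list of log2 CPM minus the mean of the animal's own unheated lineage, for the 9 animals at 40 °C (hybrids I, K and X, U. graciosus P, Q and T, U. ornatus L, N and O). X, T and O share high HSP90 medians (1.02, 0.81 and 0.68), while the cell cycle median of 3.13 is seen in X.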

How the data were processed

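Liver RNA of 18 male lizards was sequenced from directional Illumina libraries, and the 6 hybrid libraries are described here. Per the submitters' processing notes, the authors used Trim Galore 0.6.4, STAR, Subread and DESeq2, and per the series' design text reads were aligned to Sceloporus undulatus, which belongs to a different genus. Build, annotation, strand setting and the handling of multi-mapped reads were not given in the sources used here, so counts of close paralogs and overlapping genes are uncertain, and genes that differ more from the reference may be counted less fully. The deposited values are raw counts per gene, 22773 genes, of which 9041 have placeholder names, and 0 columns lacked a sample.

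From these counts, edgeR 4.0.16 (R 4.3.3) kept genes with filterByExpr, scaled libraries by TMM and fitted a robust quasi-likelihood model over the 6 groups of all 18 libraries, so that groups share 1 estimate of spread. Adjusted p are Benjamini-Hochberg values over all 15856 genes, with a threshold of 0.05. The p-values set a difference against a spread between animals that was estimated over all 18 libraries, not over the hybrids alone. Log2 CPM used a prior count of 2. Alternatives were RLE factors, DESeq2 1.42.0, limma 3.58.1 with voom and sample weights, halved counts, a stricter filter, a fit to the hybrids alone and each hybrid left out. The fit was also run on simulated counts in which the changed genes were changed alike in all heated hybrids. Those counts held no outlying animal and no difference between lineages, so they do not cover an animal such as X. In the lists a median is taken over genes with enough counts.

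The libraries were set by label, but this choice, the gene lists and the tests were made with earlier results of these data known. Genes were named by rule: those with the smallest p, the largest differences without overlap, the leading members of each list, a fixed set of stress and metabolic genes, the most abundant cell markers, the genes farthest apart in each animal, the leading DESeq2 genes and those nearest to a difference from the parents. Some genes that meet the rule are not reported here. Positions are not given, since no genome of the reference species was used.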

Additional observations from a re-analysis of the deposited data

Results flagged for a closer look

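A test of a single outlying animal within a group was not run, since each group held 3. In limma's fit over all 18 libraries, where a low weight marks a library far from its group, X had a weight of 0.160 and the other hybrids 0.657 to 2.01. Among the named genes, the results below stood out because all 3 heated hybrids lay on one side of the unheated hybrids and all 3 heated animals of a parental species lay on the other side of theirs. Over all genes this held for 16 higher and 21 lower hybrid genes against U. graciosus, and for 50 and 62 against U. ornatus. ADCY9, CISD3, LRFN5, PIK3R1 and PPL had been named for a small p of this very difference, so their differences are selected values. Each value is the hybrids' log2 heat difference minus that of the parent, with edgeR's adjusted p for the difference. None passed the threshold of 0.05.

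ADCY9, an adenylate cyclase, differed by -1.22 against U. ornatus (adjusted p = 0.217). CDKN1A, the cell cycle brake, differed by 2.52 against U. graciosus (adjusted p = 1). CISD3, the mitochondrial iron-sulfur protein, differed by -1.46 against U. graciosus (adjusted p = 1) and -1.88 against U. ornatus (adjusted p = 0.232). CLOCK, the circadian factor, differed by -0.61 against U. graciosus (adjusted p = 1). DNAJB5, an HSP40, differed by -1.52 against U. graciosus (adjusted p = 1) and -2.24 against U. ornatus (adjusted p = 0.344). INTS8, of the Integrator complex, differed by 1.41 against U. ornatus (adjusted p = 0.242). LRFN5, the adhesion protein, differed by -3.19 against U. ornatus (adjusted p = 0.0717). MRPL55, of the mitochondrial ribosome, differed by 0.95 against U. graciosus (adjusted p = 1). PIK3R1, of PI3 kinase, differed by -2.07 against U. graciosus (adjusted p = 1). PPL, periplakin, a cytoskeletal linker, differed by 1.87 against U. ornatus (adjusted p = 0.137). RPS12, of the cytosolic ribosome, differed by 0.62 against U. ornatus (adjusted p = 0.558). TFRC, the transferrin receptor, differed by -2.05 against U. ornatus (adjusted p = 0.334). ULK1, a kinase that starts autophagy, differed by -1.06 against U. ornatus (adjusted p = 0.389). In heated hybrids CDKN1A, INTS8, MRPL55, PPL and RPS12 were the higher ones of this group, and the other genes the lower ones.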

How the results depend on the processing

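No paired analysis was possible because each animal has its own letter and was measured at 1 temperature only. In edgeR the count of genes called for the hybrid heat effect was 0 under RLE factors, halved counts, the stricter filter, the fit to the hybrids alone and each hybrid left out, and voom gave 0. DESeq2 called 55 for the hybrid effect, 10 against both parents, 3 against U. graciosus and 92 against U. ornatus. Leaving out 1 hybrid gave 0 to 1 genes against U. ornatus, 1 without I and 1 without X. Genes without overlap numbered 71 higher and 115 lower when the groups had to lie at least 0.5 apart, and 1340 to 1924 higher and 1368 to 1757 lower with 1 animal left out, where fewer animals make overlap rarer by construction. Private genes of X numbered 202 above and 247 below at a margin of 2, and 1173 above with a mean of at least 1 CPM.

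Of the 69 list medians, 18 had the other sign without X, and 6, 5, 8, 6 and 7 without I, K, A, B and D. Lists whose animal medians did not overlap numbered 4 higher and 5 lower with RLE factors, and 5 to 17 higher and 6 to 12 lower with 1 hybrid left out, both added after the data were seen.

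The log2 difference of the following genes changed sign with 1 animal left out, and the range over the 6 leave-outs is given. Without X the sign changed for AGR2 from -0.56 to 3.45, APEX1 from -1.97 to 2.80, CCNB1 from -0.16 to 3.81, CDH17 from -1.27 to 3.91, COL3A1 from -0.34 to 2.74 and HMOX1 from -0.0448 to 1.39. Without X it also changed for HSPA2 from -0.39 to 6.06, HSPB1 from -0.73 to 1.03, PCK1 from -0.0464 to 10.02, PRDX3 from -0.53 to 0.0545 and SPP1 from -0.13 to 4.03. Without B the sign changed for GLUL from -1.84 to 0.15 and OGG1 from -0.24 to 0.0326. Without D the sign changed for HSPA5 from -0.0276 to 1.62 and SOD2 from -0.0185 to 0.39. Without I the sign changed for DIO2 from -1.01 to 1.41 and MSMO1 from -0.0823 to 1.62. Without X or D the sign changed for CPT1A from -0.57 to 0.36 and GCLC from -0.43 to 0.12. Without I or D the sign changed for GPX4 from -0.28 to 0.21. Without I or K the sign changed for GPX1 from -0.52 to 0.15. Without I, K or D the sign changed for SOD1 from -0.13 to 0.23. Without I, K, A or B the sign changed for CAT from -0.31 to 0.29. The difference of GPX4 was -0.00519 in the fit to the hybrids alone. The cause was not tested. Under RLE factors, DESeq2 and halved counts no named gene or list changed sign, while the number of genes called depended on the tool, as given above.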
